A study of Mus musculus with 3 samples.

Results

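The genes described here are the ligands and receptors of axon guidance: semaphorins with their plexin and neuropilin receptors, Eph receptors with the ephrins, netrins with the Unc5 receptors, and Slits with the Robo receptors. They were taken by symbol from the autosomal protein-coding genes of GENCODE M21 with a length of at most 1 Mb, which gave 66 of 20752 genes. The longest member was *Epha6*, at 952 kb. The measurement was single-nucleus ATAC-seq (snATAC-seq), in which a transposase cuts accessible DNA, of dopaminergic neurons (DNs) from the midbrain ventral tegmental area (VTA) of male C57Bl/6Nl mice. There were 2 DN libraries, from mice aged 7 and 9 weeks, and the labels name no genetic change or treatment. The authors pooled both libraries in 1 list of peaks. No replicate spread or test between samples can therefore be had, and the age of the mouse and the library cannot be told apart. An ATAC-seq sample of mouse embryonic stem cells belongs to the same series and was not analysed here.

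Axon guidance proteins steer growing axons. Semaphorins bind plexins, often with a neuropilin as co-receptor. Ephrins stay on the cell surface and bind Eph receptor tyrosine kinases on the neighbouring cell. Netrins attract through Dcc and repel through Unc5 receptors, and Slits repel through Robo receptors. In the embryo these systems guide the axons of midbrain DNs towards the striatum. In the adult brain many of the same genes stay active and take part in the shaping of synapses.

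The list held 55326 peaks of 500 bp each, 54570 of them on autosomes, and gave no height or count per peak. A gene without a peak is thus a gene at which none was called at the depth of the pooled DN nuclei. As a check of the cell type, all 10 DN markers, among them *Th*, *Slc6a3*, *Lmx1b* and *Foxa2*, had a peak at the promoter, with 3 to 31 peaks per gene. DNs were chosen by the authors on the accessibility of some of these genes, so that this check is not independent. Of markers of other cells, *Olig2*, *Sox10* and *Mog* of oligodendrocytes, *P2ry12* and *Tmem119* of microglia and *Cldn5* and *Tek* of endothelial cells had no peak. *Gjb6* of astrocytes and *Gad2* of GABAergic neurons had none either. *Cx3cr1* of microglia had 9 peaks, *Aldh1l1* of astrocytes 5, *Mag* of oligodendrocytes 1 and *Gad1* of GABAergic neurons 1, none at a promoter. *Slc32a1* of GABAergic neurons had 1 peak, which lay at its promoter. The part of other cells in the peaks of the guidance genes was not tested.

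At least 1 peak lay in the gene body or the 2 kb upstream of 63 of 66 guidance genes, or 95.5% (95% exact binomial interval 87.3 to 99.1%), whereas 66.1% of all 20752 genes had one. The 3 members without a peak were *Sema3a*, *Epha2* and *Ephb4*, or 4.55%, and 33.9% of all genes had none. A peak with its centre within 1 kb of an annotated transcription start site (TSS), called a promoter peak here, was found at 58 members, or 87.9% (77.5 to 94.6%), against 57.1% of all genes. Away from the promoters of any protein-coding gene, 52 members, or 78.8%, held a peak, against 37.9% of all genes. At least 10 peaks lay at 17 members, or 25.8%, against 3.4% of all genes. Together the members held 396 peaks, 0.726% of the autosomal peaks, of which 8 also overlapped another protein-coding gene. Guidance genes were longer than most, with a median length of 62.8 kb against 17.6 kb over all genes, and long genes have more room for peaks.

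The median peak density of members was 5.94 peaks per 100 kb of gene and upstream sequence, with an order-statistic interval of 3.40 to 9.37, against 3.36 over all genes. Within classes of gene length the difference lay in the shorter genes. Members under 30 kb had a median of 16.2 peaks per 100 kb against 4.51 for all genes of that length, and those of 30 to 100 kb had 16.7 against 3.08. From 100 to 300 kb the medians were 4.49 and 2.36. The 14 members of 300 kb to 1 Mb had a median of 1.45, beside 1.44 for all 486 genes of that length. Among genes with at least 1 peak the order of the overall medians turned, with 6.57 for members and 7.11 for all such genes. Genes of 1 list are not replicates, so these medians are descriptions without a test.

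**Figure D1:**
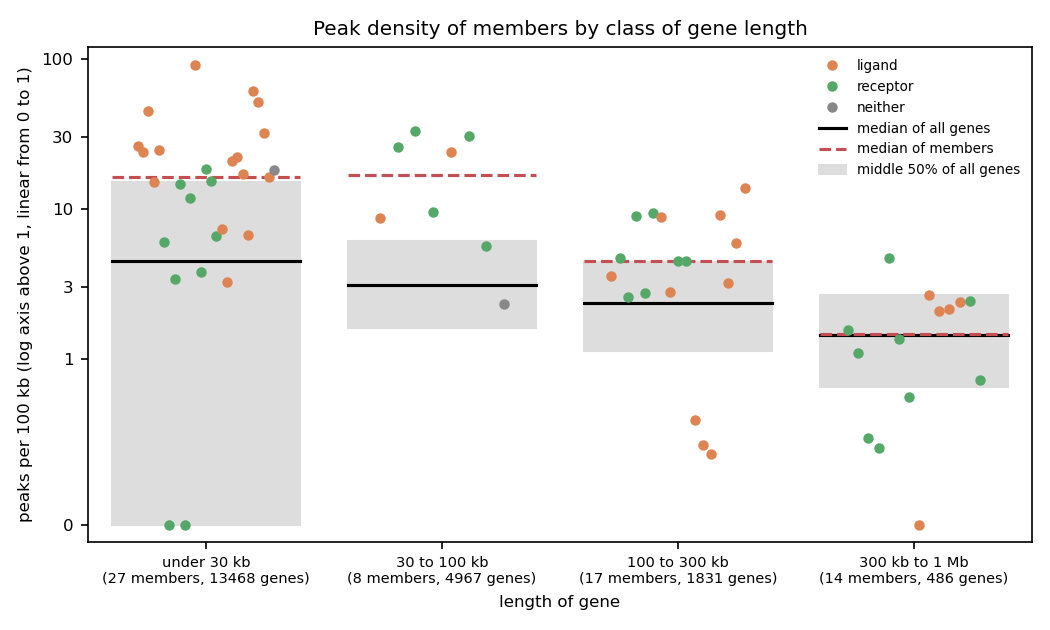
Peaks per 100 kb of each of the 66 members (points; y axis, linear from 0 to 1 and logarithmic above) in 4 classes of gene length (x axis), with ligands, receptors and the 2 genes that are neither in separate colours. Solid lines are medians of all genes, dashed lines are medians of members and grey boxes span the middle 50% of all genes; the 2 medians lie apart below 300 kb and together, at 1.45 and 1.44, in the longest class.

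At least 1 peak was present at 32 of 33 ligand genes (97.0%, exact binomial interval 84.2 to 99.9%) and at 29 of 31 receptor genes (93.5%, 78.6 to 99.2%). Promoter peaks were found at 29 ligand and 28 receptor genes. Ligand genes held 199 peaks and receptor genes 193, with a median of 4 peaks in both. The ligand genes were shorter (median length 39.7 kb) than the receptor genes (115 kb), and their median densities were 8.79 and 4.49 peaks per 100 kb. Under 30 kb, 16 ligands had a median density of 23.0 and 10 receptors had 6.26. From 30 to 100 kb the order was reversed, with 16.4 for 2 ligands and 25.7 for 5 receptors. From 100 to 300 kb, 10 ligands had 3.38 and 7 receptors 4.49, and from 300 kb to 1 Mb, 5 ligands had 2.143 and 9 receptors 1.097. The remaining 2 of the 66 genes, *Unc50* and *Unc5cl*, enter through the first letters of their symbols and are not netrin receptors. Each had 2 peaks, and both peaks of *Unc50* (chr1:37430139-37439124) also overlapped the neighbouring gene *Coa5*.

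**Figure D2:**
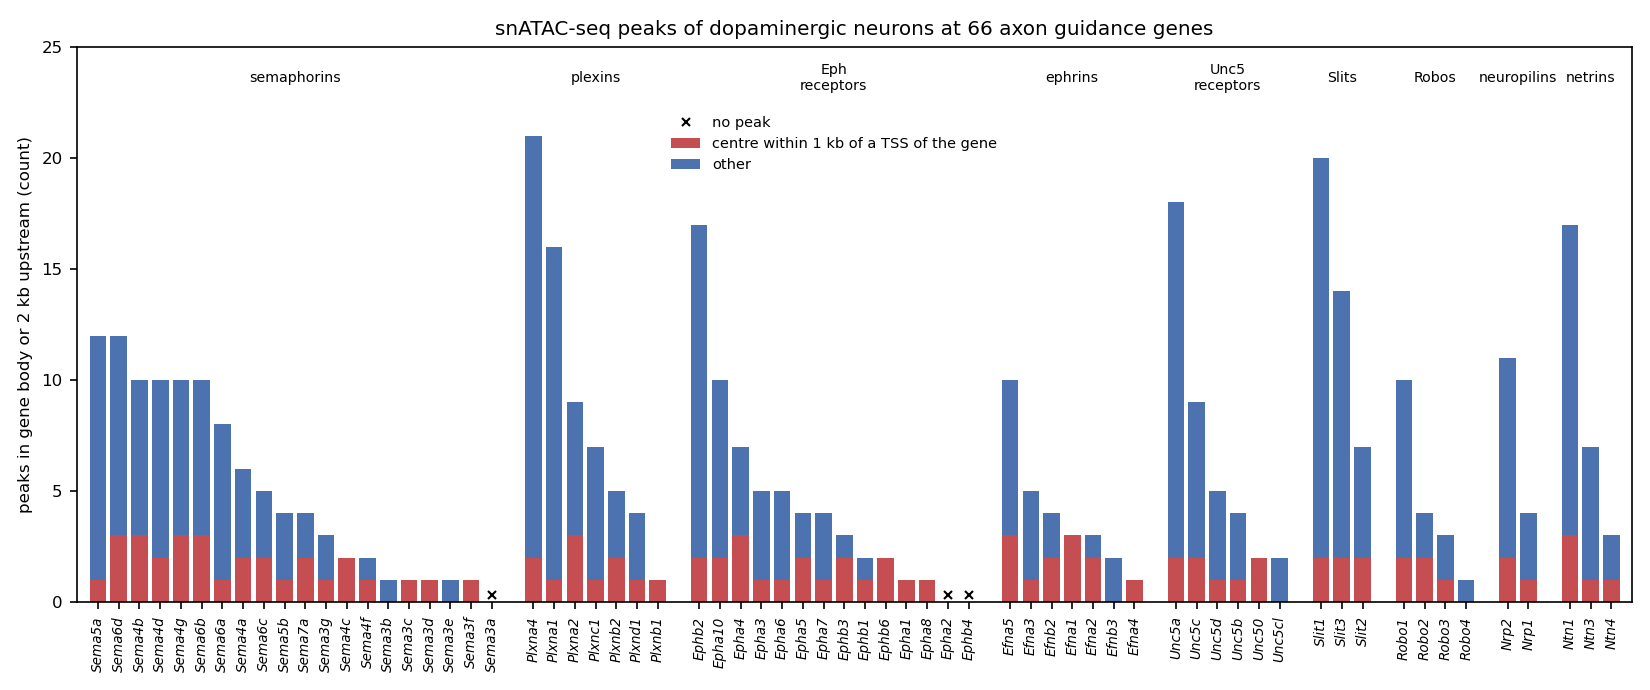
Number of peaks (y axis, count) in the gene body or 2 kb upstream of each of the 66 members (x axis), by family. Red marks peaks with a centre within 1 kb of a TSS of the gene, blue marks all others and a cross marks the 3 members without a peak; counts run from 0 to 21 in *Plxna4*.

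The 20 semaphorin genes held 103 peaks. Class 3 semaphorins, the secreted ligands, most of which act through neuropilins and A-type plexins, held 8 peaks over 7 genes. *Sema3a* (chr5:13125414-13602565) had no peak, *Sema3b*, *Sema3c*, *Sema3d*, *Sema3e* and *Sema3f* had 1 each and *Sema3g* had 3. Their median density was 0.633 peaks per 100 kb, and their median percentile among all genes of the same length class was 10.95. For the 4 class 3 genes on chromosome 5, *Sema3a*, *Sema3c*, *Sema3d* and *Sema3e*, the surrounding 5.35 Mb from 12383385 to 17730268 (mm10) held 21 peaks in all, or 3.93 per Mb. Such a low rate was not particular to this region. The 14.8 Mb of chromosome 16 from *Epha6* to *Robo2* held 4.81 per Mb, whereas the stretch from *Efna1* to *Efna4* held 136 per Mb. These 4 genes stood at the 1.34 to 10.95 percentiles of their length classes, and *Sema3f* on chromosome 9 at the 45.2 percentile.

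The classes overlapped, since the short class 3 genes *Sema3g* and *Sema3b* stood at the 81.8 and 59.2 percentiles of their length class. Among the membrane-bound semaphorins, the 6 class 4 genes held 40, with a median density of 19.6 peaks per 100 kb and a median percentile of 88.1, and the 4 class 6 genes held 35, with a median percentile of 87.4. *Sema4b*, *Sema4d*, *Sema4g* and *Sema6b* (chr17:56123085-56140343) had 10 peaks each, *Sema6a* 8, *Sema4a* 6, *Sema6c* 5, and *Sema4c* and *Sema4f*, at the 78.1 and 56.8 percentiles, 2 each. *Sema4g* (chr19:44989101-45003397) is only 14.3 kb long, and 5 of its peaks lay within 3.13 kb. *Sema4b* (chr7:80186841-80226527) reached the 98.2 percentile of its length class. In *Sema4d*, a ligand of B-type plexins, 5 of 10 peaks lay in the 30.2 kb of intron 1. The class 5 genes *Sema5a* (chr15:32244810-32696341) and *Sema5b* had 12 and 4 peaks, and *Sema7a*, which is anchored to the membrane by a lipid, had 4. *Sema6d* (chr2:124089969-124667770) had 12 peaks, of which 1 lay 0.615 kb inside its outer TSS and 2 lay at the TSS 520 kb further in, from which 4 of its 8 transcripts in the basic annotation start. Between these ends it had 8 intronic peaks, the last at 280 kb, followed by 239.6 kb without a peak centre.

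All 7 autosomal plexin genes, which encode semaphorin receptors, had a promoter peak, and together they held 63 peaks. *Plxna4* (chr6:32144268-32588192) had the most of any member, 21, of which 11 lay in the 186 kb of intron 3. *Plxna1* (chr6:89316314-89362620) is 46.3 kb long and had 16 peaks. At 33.1 peaks per 100 kb, it reached the 99.4 percentile of its length class, the highest of all members. Its peaks were spread from the promoter to intron 23. Outside protein-coding genes, 8 more peaks lay nearer to its TSS than to that of any other protein-coding gene. *Plxna2* had 9 peaks, *Plxnc1* 7, *Plxnb2* (chr15:89155549-89180788) 5, *Plxnd1* 4 and *Plxnb1* 1. The 3 autosomal A-type plexins, the signalling partners of neuropilins, held 46 of the 63 plexin peaks. The co-receptor *Nrp2* (chr1:62703285-62818695) had 11 peaks, 4 of them in intron 1, and *Nrp1* (chr8:128358604-128503363) had 4, none of them further than 4.82 kb into the gene. The autosomal genes of neuropilins and A-type plexins had 4 to 21 peaks and those of the class 3 ligands 0 to 3, while the X-linked *Plxna3*, outside the rule, had 1.

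The 14 Eph receptor genes held 61 peaks, with a median of 3.5 and a range from 0 to 17. *Epha2* (chr4:141301240-141329384) and *Ephb4* (chr5:137350109-137378669) had none, and the nearest peaks outside their bodies lay 27.5 and 10.7 kb away. *Ephb2* (chr4:136647539-136835988) had the most, 17, of which 7 lay in intron 3 and 4 in intron 1. *Epha10* (chr4:124880899-124917800), a receptor without kinase activity, is 36.9 kb long and had 10 peaks and the 98.7 percentile. *Epha4* had 7 peaks, and another 10 intergenic peaks were nearest to its TSS among protein-coding TSSs, the most of any member. *Epha3* and *Epha6* had 5 peaks each, *Epha5* and *Epha7* 4 each, *Ephb3* (chr16:21204755-21223305) 3, *Ephb1* and *Ephb6* 2 each, and *Epha1* and *Epha8* 1 each. In *Epha6*, which is among the longest members, 645 kb passed without a peak centre. *Ephb1* had 2 peaks in a body whose longest empty stretch was 309 kb.

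All 7 ephrin genes on autosomes had a peak. They were the shortest of the families, with a median length of 9.41 kb, and held 28 peaks at a median density of 23.9 per 100 kb. *Efna5* (chr17:62604184-62881317), an ephrin that patterns topographic maps, had 10 peaks, and 5 of them lay within 3.41 kb around its 5′ end. *Efna3* (chr3:89313899-89322965), a gene of 9.07 kb, had 5 peaks, *Efnb2* 4, *Efna1* (chr3:89271733-89281142) and *Efna2* 3 each, *Efnb3* 2 and *Efna4* 1. *Efna1*, *Efna3* and *Efna4* lie within 100 kb of each other on chromosome 3, and no peak was shared among them. *Efnb3* was the 1 ephrin gene without a promoter peak, with 1 peak in intron 1 and 1 past its end.

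Among the netrin genes, *Ntn1* (chr11:68209364-68400823) had 17 peaks, 3 of them at promoters and 6 in intron 3. *Ntn4* had 3. *Ntn3* (chr17:24203848-24209531), a gene of 5.68 kb, had 7 peaks, 2 of them upstream, and the 99.3 percentile, yet 3 of the 7 also overlapped *Tbc1d24*, and 1 of these lay at a promoter of that gene. The 4 Unc5 receptor genes all had promoter peaks and held 36 peaks. *Unc5a* (chr13:54949411-55006018) had 18, and 13 of them lay in intron 1, at 5.05 to 33.0 kb from the TSS. This intron held 31.6 peaks per 100 kb, and the tightest 5 peaks of the gene spanned 2.66 kb, the closest spacing of 5 peaks in any member. *Unc5c* (chr3:141465216-141834924) had 9 peaks, *Unc5d* 5 and *Unc5b* 4.

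The 3 Slit genes held 41 peaks: 20 in *Slit1* (chr19:41600257-41743665), 14 in *Slit3* and 7 in *Slit2*. In *Slit1*, 10 peaks lay in intron 4, at 27.3 to 87.5 kb, and another 6 between 120 and 130 kb, near the 3′ end. *Slit3* (chr11:35121224-35708507) is longer, at 587 kb, and its peaks lay far apart, with 5 of them spanning at least 69.9 kb. Of the 4 Robo receptor genes, *Robo1* had 10 peaks, *Robo2* 4, *Robo3* 3 and *Robo4* 1. *Robo4* (chr9:37401897-37415115) had no promoter peak.

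**Figure D3:**
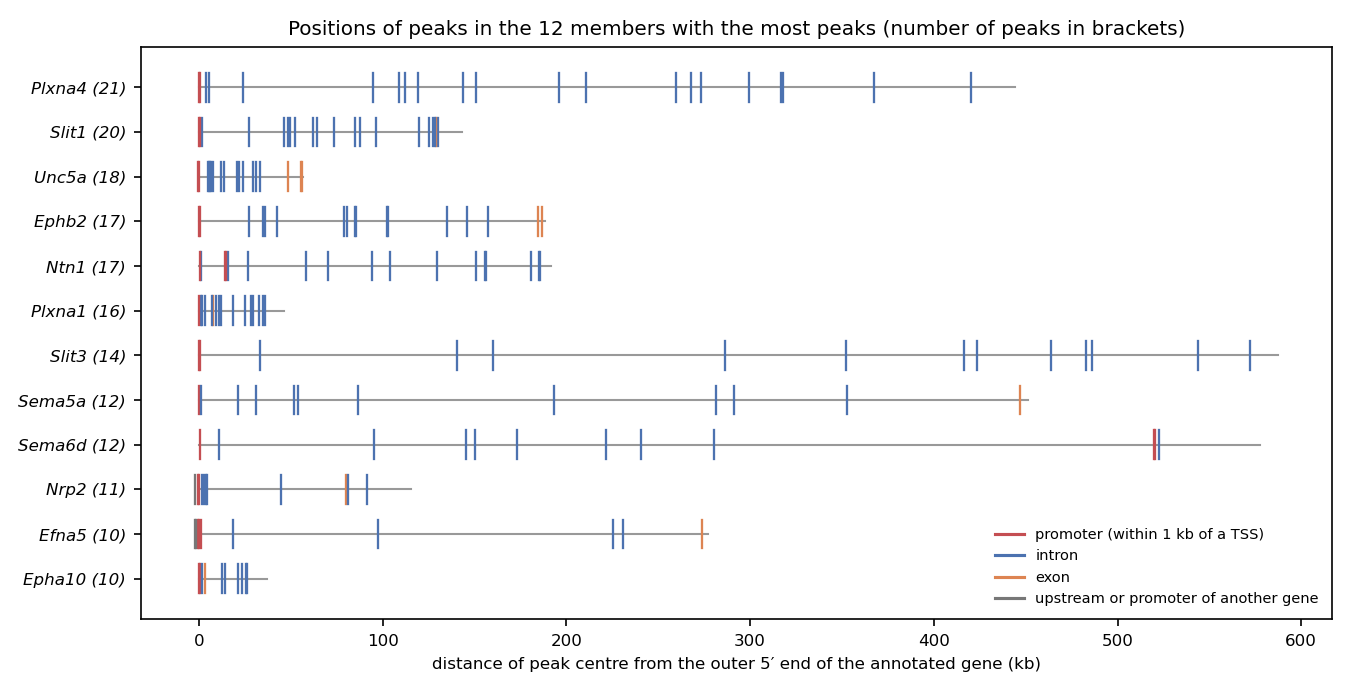
Peak centres (vertical ticks) along the 12 members with the most peaks, as the distance in kb from the outer 5′ end of the annotated gene (x axis). Grey lines span the gene bodies and colours mark the kind of position; peaks of *Unc5a* crowd into the 5′ part of the gene, those of *Slit1* form groups, and *Sema6d* has a pair of promoter peaks at 520 kb.

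Most peaks of the guidance genes lay in introns. Of 396 peaks, 250 (63.1%) were intronic, 99 (25.0%) lay at a promoter of the gene, 22 in coding exons and 8 in other exons. Over all genes 46.1% of peaks were intronic and 39.7% lay at a promoter. Members were longer than most genes, and these shares were not matched for gene length, nor were those of introns 1 and 2 and of intergenic peaks. Intron 1 held 87 of the 250 intronic peaks (34.8%, against 26.9% over all genes) and intron 2 held 15 (6.00%, against 14.8%). When genes of at least 100 kb were cut into 3 equal parts, the part nearest the 5′ end held 39.3% of the intronic peaks of members and 30.4% of those of all such genes. Outside protein-coding genes and their 2 kb upstream, 96 peaks, called intergenic here, had a member's TSS as the nearest protein-coding TSS. They belonged to 38 members (57.6%), and 27.2% of all genes had such a peak.

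At 8 members no promoter peak was found: *Sema3a*, *Sema3b*, *Sema3e*, *Epha2*, *Ephb4*, *Efnb3*, *Unc5cl* and *Robo4*. At 4 others, or 6.06% of members and 3.43% of all genes, an inner TSS had a promoter peak while the outermost 5′ end had none. In *Robo1* (chr16:72308306-73046095) the only TSS of the basic annotation lies 355 kb inside the gene and had 2 peaks, the nearest 29 bp away. Of the 10 *Robo1* peaks, 1 lay upstream of that TSS, at 277 kb, inside the intron of another transcript. In *Sema4a* (chr3:88435959-88461182) the peaks lay at TSSs 2.08 and 2.30 kb from the outer end, in *Sema4c* (chr1:36548639-36558349) at 0.792 and 0.823 kb and in *Robo3* (chr9:37415669-37433246) at 3.11 kb. The outer TSSs of *Sema4c* and *Robo3* missed the 1 kb limit narrowly, with the nearest peak centre at 1107 and 1110 bp. For the outer TSS of *Sema4a* it lay at 2064 bp. For *Robo2* (chr16:73891839-74411825), RefSeq lists 2 starts beyond the outer end of the GENCODE gene, at 681 and 1035 kb. Both had 1 peak within 1 kb, at 190 and 32 bp. The RefSeq start of *Sema4d* at 37.1 kb also had a peak, 317 bp away, where the basic annotation has no TSS.

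The DNA at these starts is shown for 8 promoters, taken from the RefSeq table of GRCm38.p6, which covers 250 bases before to 50 after each start and matched 57 of 66 members with 73 promoters. *Sema3b*, *Sema3f*, *Sema6a*, *Plxna1*, *Plxna4*, *Efnb3*, *Unc5d*, *Slit1* and *Ntn1* had no entry. The 120 bases before the start are printed from 5′ to 3′ on the strand of the gene, with CG dinucleotides in capitals. *Sema3a*, *Sema3e*, *Epha2* and *Ephb4* had no peak at the start, and *Sema3d*, *Epha5*, *Epha8* and the outermost *Robo2* start had one.
*Sema3a*, chr5:13396664-13396783, plus strand: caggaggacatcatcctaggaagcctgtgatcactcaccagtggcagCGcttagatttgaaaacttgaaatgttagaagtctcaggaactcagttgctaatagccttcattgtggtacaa
*Sema3e*, chr5:14025156-14025275, plus strand: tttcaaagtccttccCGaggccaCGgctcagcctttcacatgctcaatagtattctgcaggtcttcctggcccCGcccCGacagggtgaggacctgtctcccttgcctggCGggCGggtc
*Epha2*, chr4:141301101-141301220, plus strand: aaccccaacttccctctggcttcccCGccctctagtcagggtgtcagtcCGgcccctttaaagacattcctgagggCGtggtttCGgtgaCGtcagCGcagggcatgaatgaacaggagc
*Ephb4*, chr5:137349989-137350108, plus strand: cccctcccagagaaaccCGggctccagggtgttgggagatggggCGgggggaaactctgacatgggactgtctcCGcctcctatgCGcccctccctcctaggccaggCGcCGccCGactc
*Sema3d*, chr5:12383046-12383165, plus strand: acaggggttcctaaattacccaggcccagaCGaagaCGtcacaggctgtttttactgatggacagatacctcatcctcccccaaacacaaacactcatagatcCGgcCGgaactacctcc
*Epha5*, chr5:84417383-84417502, minus strand: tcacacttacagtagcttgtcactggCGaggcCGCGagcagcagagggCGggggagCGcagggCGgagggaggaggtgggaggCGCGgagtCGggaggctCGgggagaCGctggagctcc
*Epha8*, chr4:136956817-136956936, minus strand: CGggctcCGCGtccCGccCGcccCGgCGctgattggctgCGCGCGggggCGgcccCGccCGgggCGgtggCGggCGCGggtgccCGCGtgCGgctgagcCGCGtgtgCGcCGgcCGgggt
*Robo2*, chr16:75447294-75447413, minus strand: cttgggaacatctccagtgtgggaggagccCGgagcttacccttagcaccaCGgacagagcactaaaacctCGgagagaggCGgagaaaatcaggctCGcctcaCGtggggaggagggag

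In the 4 sequences without a peak, 1, 6, 6 and 7 CG dinucleotides can be counted, and in the 4 with a peak 4, 11, 25 and 6, so that single promoters overlapped. Over the whole 300 bases, the 59 member promoters with a peak centre within 1 kb of the RefSeq start had a median of 23 CG dinucleotides (range 2 to 56) and the 14 without had 6.5 (range 2 to 19). Over all genes the medians were 22 for 10918 promoters with a peak and 4 for 8193 without. The members thus followed the division seen over all promoters. Several promoters belong to 1 gene in both groups, and no test was made. Among members with a peak, the fewest CG dinucleotides were at the inner start of *Sema4d*, with 2, and at a start of *Sema4a* and the *Robo2* start at 681 kb, with 5 each. The most were at *Epha8* with 56, *Sema3c* with 42 and *Slit3* with 41. *Sema4c* had 19 at its outer RefSeq start and 30 at the inner one, which had 2 peaks within 1 kb. The outer start had none within 1 kb, with the nearest peak centre at 1139 bp.

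**Figure D4:**
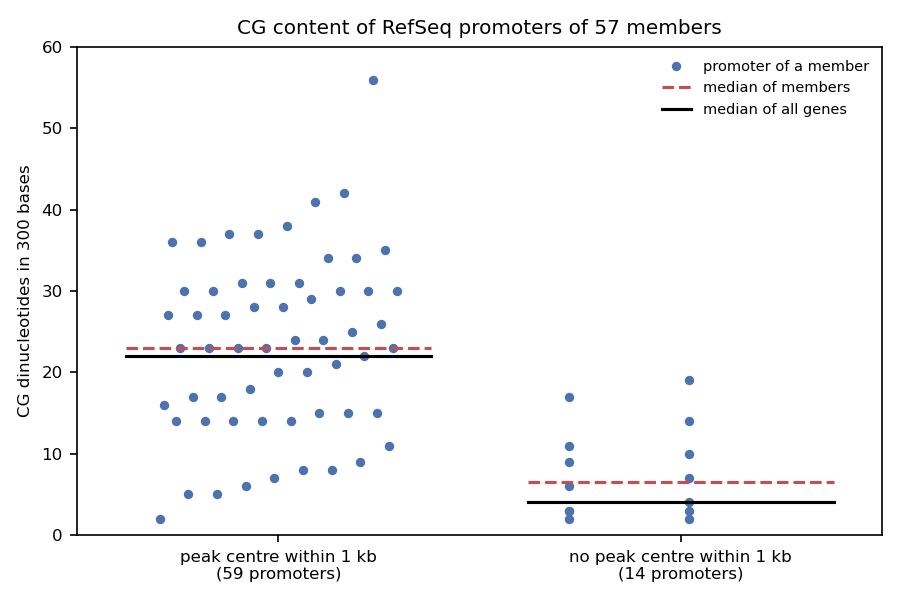
CG dinucleotides in the 300 bases around each RefSeq start of 57 members (y axis, count), for 59 promoters with a peak centre within 1 kb and 14 without (x axis, points spread sideways for visibility). Medians of members (dashed) are 23 and 6.5 and those of all genes (solid) are 22 and 4; both groups hold promoters with few CG dinucleotides.

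Short sequence words, 11 in all, were searched on both strands of all peaks, each a core of a known binding motif: a CTCF core of 12 letters, TGTTTAC for forkhead factors, TAATTA for homeodomain factors, AAAGGTCA for Nr4a receptors, TGANTCA for AP-1, CAGCTG and CAGATG for basic helix-loop-helix factors (E-boxes), a palindromic Nrf1 core, CTATTTTTA for Mef2, GGGGCGGGG for Sp and Klf factors and GCGTGGGCG for Egr factors. The CTCF word can contain CAGATG or CAGCTG, the Sp and Egr words can overlap in part, and the words differ in length, so that shares of different words are not comparable with each other. A match is a description of the letters and not a bound site. In the 296 peaks of members away from promoters, CAGATG was present in 41.9% (37.9% of 24908 such peaks of all genes), CAGCTG in 35.1% (34.0%), TGANTCA in 13.2% (14.2%), TAATTA in 8.45% (8.19%), the CTCF word in 7.09% (10.4%), TGTTTAC in 5.41% (8.56%), AAAGGTCA in 3.72% (4.79%), the Sp word in 3.38% (3.33%) and the Mef2 word in 2.03% (1.28%). None held the Nrf1 or Egr word (0.132% and 0.233%). No test was made of these shares. At the 100 member peaks within 1 kb of any protein-coding TSS, the Sp word was present in 27.0% (23.4% of 16240), CAGCTG in 27.0% (25.5%), CAGATG in 16.0% (19.5%), the CTCF word in 9.00% (5.26%), TAATTA in 6.00% (3.36%), the Egr word in 5.00% (1.65%), TGTTTAC in 2.00% (3.64%), the Nr4a, AP-1 and Nrf1 words in 1.00% each (1.41%, 6.82% and 1.79%) and the Mef2 word in none (0.413%). The median GC content was 63.8% in these promoter peaks of members (62.2% over all genes) and 52.2% in the others (50.2%).

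Away from promoters the CTCF word stood near the middle of the peaks. In member peaks away from promoters the median distance between the centres of the word and of the peak was 20 bp (27 bp over all genes), whereas CAGATG and CAGCTG lay at 103 and 99 bp and TGANTCA at 130.5 bp. In promoter peaks of members the CTCF word lay at a median of 73 bp and the Sp word at 70.5 bp. Peaks with the CTCF word included the only peak of *Sema3b* (intron 9), the only one of *Sema3e* (intron 5) and the only one of *Robo4* (intron 9), none of which had a promoter peak. The last of these 3 and the *Sema3e* peak are shown with the intron 3 peak of *Sema5b*, with the word in capitals and 20 bases on either side. Sequences are read from GRCm38 on the strand of the gene, 5′ to 3′.
*Sema3e*, chr5:14218862-14218913, plus strand: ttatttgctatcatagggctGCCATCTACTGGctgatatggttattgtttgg
*Robo4*, chr9:37406565-37406616, plus strand: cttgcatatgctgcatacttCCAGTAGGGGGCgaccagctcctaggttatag
*Sema5b*, chr16:35628380-35628431, plus strand: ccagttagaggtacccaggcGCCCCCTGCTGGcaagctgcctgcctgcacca

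These windows lay 194 kb, 4.68 kb and 87.3 kb from the outer ends of their genes. In *Sema3e* and *Sema5b* the word reads in the opposite direction to the gene and in *Robo4* in the same direction. Other intronic peaks held 2 or more words, and 6 such windows are shown, again with the words in capitals. The first pair hold the Nr4a word with an E-box, *Unc5c*, *Robo1* and *Slit2* hold the AP-1 word with an E-box or the forkhead word, and *Unc5a* holds TAATTA on both sides of the Sp word.
*Sema4d*, chr13:51777314-51777430, minus strand: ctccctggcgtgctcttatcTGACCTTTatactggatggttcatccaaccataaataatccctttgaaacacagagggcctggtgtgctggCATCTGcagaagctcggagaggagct
*Efna5*, chr17:62655805-62655887, minus strand: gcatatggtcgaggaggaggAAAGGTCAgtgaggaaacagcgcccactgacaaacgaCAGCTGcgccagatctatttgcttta
*Unc5c*, chr3:141716140-141716193, plus strand: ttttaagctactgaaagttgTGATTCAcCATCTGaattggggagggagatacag
*Robo1*, chr16:72584905-72584960, plus strand: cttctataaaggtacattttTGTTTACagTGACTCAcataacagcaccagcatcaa
*Slit2*, chr5:48038215-48038288, plus strand: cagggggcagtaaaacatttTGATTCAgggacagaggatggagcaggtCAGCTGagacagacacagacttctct
*Unc5a*, chr13:54956128-54956260, plus strand: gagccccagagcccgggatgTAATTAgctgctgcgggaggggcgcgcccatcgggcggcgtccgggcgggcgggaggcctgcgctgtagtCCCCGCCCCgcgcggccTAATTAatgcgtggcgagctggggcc

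In *Unc5c* (intron 3, 251 kb from the outer end) 1 base separates the AP-1 word from the E-box. In *Robo1* 2 bases separate the forkhead word from the AP-1 word. This is the peak at 277 kb, upstream of the TSS with the promoter peaks. The *Sema4d* peak lies in intron 1 at 16.4 kb, the *Efna5* peak in intron 1 at 226 kb, the *Slit2* peak in intron 4 at 55.1 kb and the *Unc5a* peak in intron 1 at 6.76 kb, among the 5 closest peaks of that gene. These windows were chosen for their words after the peaks had been searched, and nothing was tested on them.

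To set the ligands and receptors beside the rest of the pathway, 53 further genes were listed: additional receptors and cues, adhesion molecules, and the signalling proteins below the receptors. Of these, 52 are at most 1 Mb long, and 51 of the 52 (98.1%, exact binomial interval 89.7 to 99.95%) had a peak, against 66.1% of all genes. A promoter peak was present at 47 (90.4%), against 57.1% of all genes. These shares of all genes are not matched for length. Among all genes of 100 to 300 kb, 93.6% had a peak and 77.2% a promoter peak. The median density of the 52 genes was 6.23 peaks per 100 kb, beside 5.94 for the ligands and receptors and 3.36 for all genes. Their median percentile among all genes of the same length class was 76.9, beside 74.7 for the ligands and receptors. The median lengths differed, with 117 kb for these genes and 62.8 kb for the ligands and receptors, so that the densities are not directly comparable. *Dscam*, an adhesion molecule linked to netrin signalling, had 68 peaks, more than any ligand or receptor among the 66 members. *Trio*, an exchange factor below the netrin receptor, had 36, *Fyn*, a kinase below netrin and semaphorin receptors, 28, and the exchange factors *Kalrn*, *Farp1* and *Tiam1* 26, 26 and 22. *Sdc3*, a heparan sulphate proteoglycan, had 44.7 peaks per 100 kb and *Crmp1*, which acts below Sema3A, had 34.5. *Mical1*, an enzyme that disassembles actin below plexins, was the 1 gene of the 52 without a peak. *Dcc*, the attractive netrin receptor, is longer than 1 Mb and had 9 peaks, or 0.819 per 100 kb, with a promoter peak. *Neo1*, the paralogue of *Dcc*, had 3 peaks.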

How the data were processed

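The deposited file held chromosome, start and end of peaks and no score, signal or count per peak. The authors aligned reads to mm10 with Cell Ranger, gated out doublets by DAPI, removed further doublets and clustered nuclei with ArchR, chose the DN cluster by *Th* and other markers, and called peaks on pseudobulk replicates of both pooled libraries. Total reads per library are not in the list, which limits what an absent peak shows; the methods describe keeping, for later analyses, peaks present in a minimum share of nuclei, and do not say whether the deposited list is from before or after that step. Starts were read as counted from 0 and are printed from 1. Peak ends fitted the chromosome lengths of GRCm38, the sequence of mm10. Peaks were assigned to genes of GENCODE M21 by an overlap of at least 1 bp with the gene body or 2 kb upstream, in Python 3.11.15 with numpy 2.4.6 and scipy 1.17.1. Exact binomial intervals at 95% cover counting error only. The samples give 1 pooled list, so no p-value was computed. Promoter peaks used TSSs of the basic annotation; introns are those of the transcript with the longest coding sequence. Members, marker genes, pathway genes and words were chosen with earlier results of these data known. Every member is given by its number of peaks, and positions are given for the 2 of each family with the most peaks, the 2 with the highest density and the 2 with the highest percentile (ties included), and for members without a peak or with a promoter peak at an inner TSS only. The genes and peaks named for the fewest or most CG dinucleotides, for their words, or among the 53 pathway genes were chosen after their values were seen. Alternatives changed what counts as a peak of a gene, the TSS distance and the genes compared.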

Additional observations from a re-analysis of the deposited data

How the results depend on the processing

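Of 25 alternatives to the counts and medians, 23 moved the values of the guidance genes little. The peaks of members numbered 391 when counted by their centres, 369 in gene bodies alone, 417 with 10 kb upstream and 388 without peaks shared with another gene. The last of these moved the values over all genes more than those of members: the median density was 5.77 peaks per 100 kb for members and 1.31 for all genes, and 93.9% of members and 54.1% of all genes had a peak. Without promoter peaks the median density fell to 2.59 peaks per 100 kb for members and to 0 for all genes. With 250 bp in place of 1 kb from a TSS, 75.8% of members and 50.5% of all genes had a promoter peak. Restricting the comparison to genes with at least 1 peak turned the order of the median densities (6.57 for members and 7.11 for all genes), by leaving out the genes at 0. Leaving out *Unc50* and *Unc5cl*, an alternative chosen after seeing the data, gave 392 peaks at 64 genes and the same median density of 5.94. No paired analysis was possible because the result comes from 1 pooled list and no test. Without counts per peak or separate lists, the spread between the 2 libraries cannot be given, and a gene without a peak may lie below the depth at which peaks were called.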

Other observations

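The X-linked relatives of these genes lay outside the rule. *Efnb1* had 2 peaks and *Plxna3* had 1, both with a promoter peak, and *Plxnb3* had none.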
